A study of Homo sapiens with 3 samples.

Results

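Glucose is split to pyruvate in the cytosol by the glycolytic enzymes, and pyruvate then either becomes lactate, which leaves the cell through monocarboxylate transporters, or enters the mitochondria, where it feeds citrate synthesis and the citric acid cycle. Most steps are carried out by a small family of isoenzymes with different kinetics and regulation, so the isoenzyme that a cell transcribes is part of how the step is controlled. Normal prostate epithelium is known for accumulating and secreting citrate, and prostate tumors for oxidizing it instead.

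Transcript levels of 43 genes of glycolysis, lactate and citrate metabolism were examined in 22Rv1 cells, a human prostate carcinoma line with castration-resistant growth. The genes were chosen by name along the pathway, from the glucose transporters to mitochondrial citrate export, and each was matched to its Ensembl identifier. All 43 had a row among the 27024 genes counted. The 3 libraries are WT replicates 1 to 3, made from total RNA of untreated cells grown in RPMI1640 with fetal bovine serum. These cells carry the intact chromosome 12 enhancer that the study deleted in knockout clones of 22Rv1. Libraries of enhancer-deleted cells were not analysed here, so no comparison between genotypes is made and the values describe WT cells only. The labels give replicate numbers alone. The study's methods speak of control clones grown from single cells and its results of biological replicates, so the spread between the 3 libraries may be that of clones, of cultures or of library preparation.

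Each library held between 35675670 and 38629080 reads on genes. Of the prostate epithelial markers KLK2, KLK3, TMPRSS2, HOXB13, FOLH1, KRT8, KRT18, EPCAM and CDH1, all 9 were expressed, with a summed level between 73235 and 77247 normalized counts. Of 13 markers of leukocytes, endothelium, stroma, muscle and basal cells with a row, 2 (COL1A1 and CD68) were expressed, 7 had no more than 3 reads in any library, and CD3E, DES, TP63 and KRT5 had none. Their summed level was 459, 360 and 419 normalized counts in replicates 1, 2 and 3. In bulk RNA, fewer cells of a kind and less RNA per cell cannot be told apart.

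Levels are given as normalized counts, each a number of reads over the size factor of its library, as mean ± SD over the 3 libraries. Since a long transcript yields more reads than a short one, levels of different genes are compared only after division by the length of the canonical transcript in kilobases. Genes that reached 1 CPM in each library, which is 1 read once the library is scaled to 1000000 reads, counted as expressed. By this rule 41 of the 43 genes were expressed, against 47.7% of all counted genes. The genes not expressed were SLC2A3 and PKLR. Together the 43 genes took 1.63%, 1.59% and 1.66% of the reads of replicates 1, 2 and 3. GAPDH alone held 27.5% of their normalized counts, TPI1 8.74%, LDHB 7.10%, ENO1 6.64% and PKM 5.05%. The plot of levels by library shows how evenly each gene was measured and how far apart the genes lie.

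**Figure D1:**
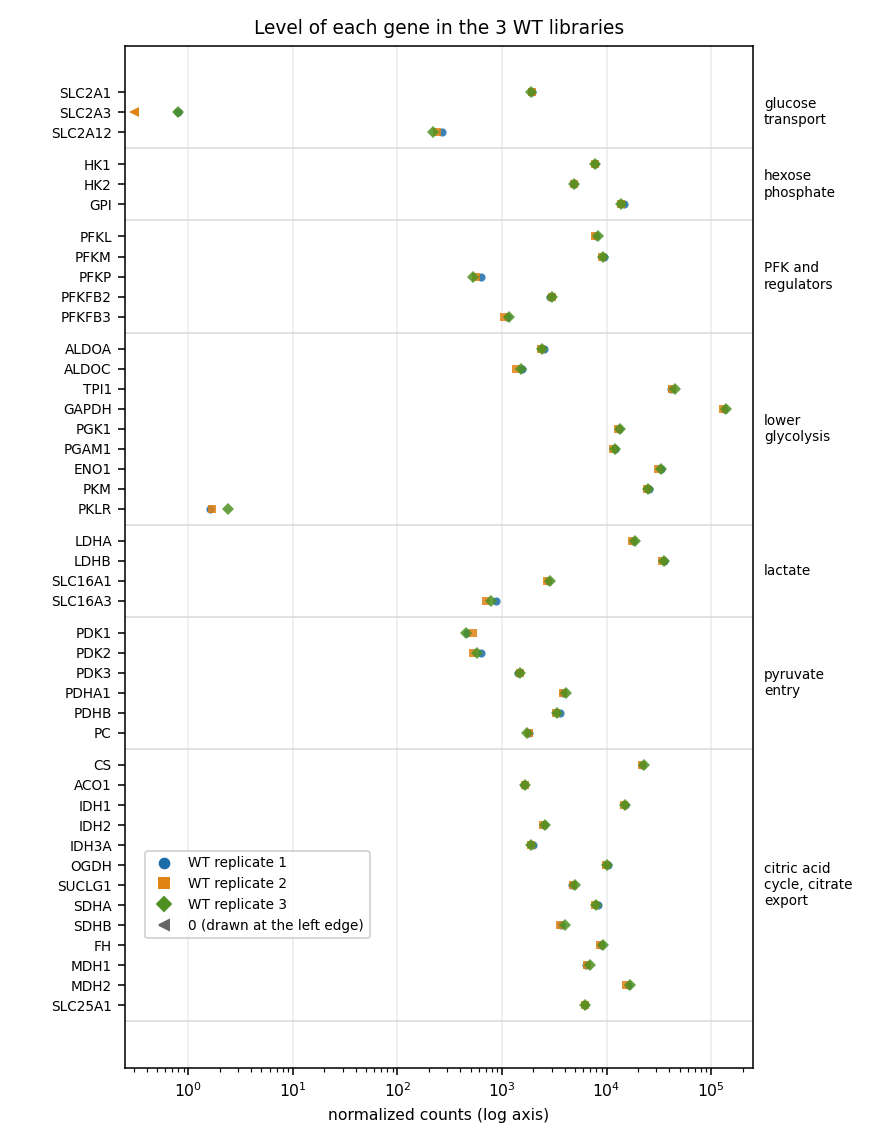
Level of each of the 43 genes in the 3 WT libraries, as normalized counts on a log axis, with 1 marker per library and genes grouped by step of the pathway. The markers of 1 gene nearly coincide for the 41 expressed genes, GAPDH stands farthest right at 135294, and SLC2A3 and PKLR stand alone at the left.

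Per kilobase of canonical transcript, 4 enzymes of lower glycolysis and LDHB stood at the top. PGK1 (2751 ± 44.7 normalized counts per kilobase), ALDOA and ALDOC of the same group lay in the middle of the order. The canonical transcript of PGK1 has 4812 bases, of which 1251 are coding. The order was not drawn up per coding length, and places in it depend on the length used. GAPDH, which oxidizes glyceraldehyde 3-phosphate, led with 105287 ± 3594 normalized counts per kilobase, a level above that of 99.98% of expressed genes. TPI1, which interconverts the triose phosphates, followed at 31830 ± 1383, then LDHB at 26822 ± 724, ENO1 at 18333 ± 631 and PKM at 10787 ± 266 on the same scale. The library ranges of these 5 genes did not overlap. LDHA (8094 ± 245 per kilobase) and citrate synthase CS (7637 ± 229) overlapped in range, and so did CS and MDH2 (7427 ± 301). At the other end stood the kinase PDK1 at 34.5 ± 2.99 and the transporter SLC2A12 at 43.3 ± 4.33 normalized counts per kilobase. Their canonical transcripts have 14072 and 5572 bases, of which 1308 and 1851 are coding, so the order of these genes depends on the length used. Of the 40 neighbouring pairs in this order, 13 overlapped in their library ranges. In all, 23 of the 43 genes lay above 90% of expressed genes per kilobase, and 7 of the expressed ones lay below 50%.

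Glucose transport was examined first. SLC2A1, the ubiquitous facilitative glucose transporter GLUT1 (chr1:43391024-43424564, minus strand, GRCh37), had 1935, 1940 and 1901 normalized counts in replicates 1, 2 and 3. SLC2A12, a transporter found in insulin-sensitive and prostate tissue, had 266, 240 and 218, and 51.2% of its canonical exons overlap TBPL1 on the opposite strand. SLC2A3, the high-affinity transporter of neurons, was listed at 0.8, 0 and 0.8, so it had 1 read at most per library. Among the 13 SLC2A genes compared, SLC2A1 made up 42.7% ± 1.01 of the family per kilobase and SLC2A12 3.25% ± 0.34. The second place went to SLC2A8, an intracellular transporter, with 27.9% ± 2.02. By normalized counts with no length correction SLC2A8 held 17.9%, so its share depends on its short transcript, while that of SLC2A1 was 43.3%. SLC2A2 and SLC2A14 had no reads. Reads of SLC2A3 could be split with SLC2A14, which shares 52.4% of its transcript length at 96.9% identity. Both genes were at 0.8 normalized counts or less.

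Hexokinases trap glucose as glucose 6-phosphate. HK1, the constitutive isoenzyme, had 7845, 7822 and 7836 normalized counts. Its SD, 0.15% of its mean, was the lowest of the 43 genes. This ranking makes no allowance for depth, and the chi-square test described below did not call HK1 (adjusted p = 0.96). HK2, the isoenzyme of muscle and many tumors, had 4883, 4903 and 4853. Per kilobase, HK1 made up 71.5% ± 0.11 and HK2 28.5% ± 0.13 of the 4 hexokinase genes compared, a ratio of 2.51 ± 0.02. Per coding length the shares were 61.6% and 38.4%. Of the other genes of the family, HK3 had no reads and HKDC1 made up 0.026%. GPI, which turns glucose 6-phosphate into fructose 6-phosphate, had 14566, 13840 and 13817 normalized counts, highest in replicate 1.

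Phosphofructokinase commits the sugar to glycolysis, and 2 of its 3 subunit genes made up nearly all of the family. PFKM, the muscle-type subunit, had 9506, 9014 and 9315 normalized counts, and PFKL, the liver-type subunit, had 7961, 7747 and 8381. Per kilobase their shares were 50.2% ± 0.69 and 46.1% ± 1.04, and the ratio of PFKM to PFKL was 1.12, 1.09 and 1.05 in the 3 libraries, above 1 in each. With the longest transcript in place of the canonical one the shares were 63.1% and 32.6%. PFKP, the platelet-type subunit, made up 3.67% ± 0.36. The bifunctional PFKFB enzymes set the level of fructose 2,6-bisphosphate, the strongest activator of phosphofructokinase. PFKFB2 (2874, 3014 and 3024 normalized counts) made up 55.0% ± 1.47 of the 4 PFKFB genes per kilobase, PFKFB3 (1115, 1055 and 1167) 32.5% ± 1.37 and PFKFB4 11.6% ± 1.00. Per coding length the shares of PFKFB2, PFKFB3 and PFKFB4 were 67.5%, 24.5% and 7.62%.

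In lower glycolysis, GAPDH (chr12:6643678-6647540, plus strand) had 134294, 131257 and 140331 normalized counts. TPI1 had 41353, 42623 and 45032, and the enolase ENO1 had 33250, 31355 and 33349. PGK1 and PGAM1, which carry out the phosphoglycerate kinase and mutase steps, had 13237 ± 215 and 11928 ± 268 normalized counts, and the genes PGK2 and PGAM2 had no reads. ENO1 made up 85.7% ± 0.18 of the enolases per kilobase, while ENO2, the gamma enolase used as a neuroendocrine marker, had 6831, 6609 and 6910 normalized counts and a share of 13.8% ± 0.15. The ratio of ENO1 to ENO2 was 6.20 ± 0.08 per kilobase and 4.81 ± 0.06 per coding length.

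Among the expressed genes of lower glycolysis, the aldolases had the lowest levels. ALDOA, the main aldolase of muscle and most proliferating cells, had 2533, 2373 and 2407 normalized counts, and ALDOC, the brain isoenzyme, had 1538, 1354 and 1506. Per kilobase, ALDOA made up 62.0% ± 1.11 and ALDOC 38.0% ± 1.10 of the family, and the ratio of GAPDH to ALDOA was 70.9 ± 3.38. The exons of ALDOA overlap those of another gene. In the annotation used here, 89.8% of its canonical exons (chr16:30075485-30081778, plus strand) also belong to a second protein-coding gene on the same strand, ENSG00000285043. That gene has a row of its own, at 205, 182 and 179 normalized counts. How reads on exons of overlapping genes were assigned is not given in the sources used here, and the part of this overlap in the level of ALDOA was not tested.

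At the last step, pyruvate kinase, the family rested on 1 gene. PKM (chr15:72491370-72524160, minus strand), which encodes the M1 and M2 isoforms by alternative splicing, had 25224, 24156 and 25215 normalized counts. PKLR (chr1:155259084-155271229, minus strand), the liver and red cell gene, had 1.6, 1.7 and 2.4, that is 2 or 3 reads per library. PKM therefore took 99.99% of the family. Gene counts do not separate M1 from M2. The 300 bases before the annotated start of the canonical transcript are shown for these genes, since PKM was expressed and PKLR was not. They come from GRCh37, PKM from chr15:72523532-72523831 on the minus strand and PKLR from chr1:155271230-155271529 on the minus strand, and each reads 5′ to 3′ on the strand of the gene. Capitals mark ACGTG or GCGTG on either strand, the letters at the core of hypoxia response elements, where overlapping matches run together.
PKM: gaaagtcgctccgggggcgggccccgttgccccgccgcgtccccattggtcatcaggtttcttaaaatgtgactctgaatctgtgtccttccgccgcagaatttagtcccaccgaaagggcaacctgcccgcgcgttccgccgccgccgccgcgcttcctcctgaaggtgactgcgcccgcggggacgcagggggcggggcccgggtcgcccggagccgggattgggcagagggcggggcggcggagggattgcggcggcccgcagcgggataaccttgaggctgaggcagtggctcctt
PKLR: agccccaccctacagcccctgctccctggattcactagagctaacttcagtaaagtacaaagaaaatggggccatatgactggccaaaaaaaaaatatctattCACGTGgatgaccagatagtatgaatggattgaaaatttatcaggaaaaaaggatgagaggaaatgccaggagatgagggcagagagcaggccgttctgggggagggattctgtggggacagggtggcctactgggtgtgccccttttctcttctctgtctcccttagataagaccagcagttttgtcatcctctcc
The PKM window held 35 CG dinucleotides and no match to either motif. The PKLR window held 2 CG dinucleotides and the letters CACGTG, which match ACGTG on both strands.

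Lactate dehydrogenase interconverts pyruvate and lactate, and its subunits differ in what they favour, A being associated with lactate production and B with lactate oxidation. LDHB (chr12:21788276-21910791, minus strand) had 35254, 33890 and 35702 normalized counts in replicates 1, 2 and 3. LDHA (chr11:18416107-18429972, plus strand) had 18066, 17628 and 18720. The ranges of the pair did not overlap, nor did they per kilobase. Per kilobase, LDHB made up 77.0%, 76.8% and 76.6% of the 5 lactate dehydrogenase genes and LDHA 23.0%, 23.2% and 23.4%. The ratio of LDHB to LDHA was 3.31 ± 0.04 per kilobase and 1.92 ± 0.02 per coding length, so its size depends on the length used and its direction did not change with either. LDHC, LDHAL6A and LDHAL6B had at most 4.7, 15.2 and 0.8 normalized counts in any library. In the annotation used here, 76.5% of the canonical exons of LDHB also belong to another gene on the same strand, which has no row in the files, and the part of this overlap was not tested. With 3 libraries an exact sign-flip permutation test cannot give a two-sided p below 0.25, so no test of this or any other isoenzyme difference is given.

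The promoters of this pair differed in composition. The windows below were read in the same way, with the same capitals, LDHA from chr11:18415810-18416109 on the plus strand and LDHB from chr12:21810777-21811076 on the minus strand.
LDHA: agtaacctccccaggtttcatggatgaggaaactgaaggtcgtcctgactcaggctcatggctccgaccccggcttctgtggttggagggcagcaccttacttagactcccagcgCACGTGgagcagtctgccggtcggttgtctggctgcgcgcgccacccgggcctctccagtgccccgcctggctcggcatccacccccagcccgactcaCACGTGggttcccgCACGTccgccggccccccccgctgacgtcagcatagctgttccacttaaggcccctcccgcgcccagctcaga
LDHB: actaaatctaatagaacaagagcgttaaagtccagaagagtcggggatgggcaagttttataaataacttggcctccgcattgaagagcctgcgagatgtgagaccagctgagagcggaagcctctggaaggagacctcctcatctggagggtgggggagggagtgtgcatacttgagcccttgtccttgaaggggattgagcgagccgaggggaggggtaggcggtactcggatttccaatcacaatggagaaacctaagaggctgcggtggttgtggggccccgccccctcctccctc
The LDHA window held 23 CG dinucleotides and 3 stretches in capitals, of which 2 read CACGTG. The LDHB window held 11 CG dinucleotides, neither motif, and the letters TATAAA, which occurred in 4 of the 43 windows (9.30%) and in 11.7% of 23135 windows of all genes with a row and 6.37% of the windows of expressed genes. Across the members, 20 of 43 windows held ACGTG on either strand (46.5%), against 23.0% of all windows and 27.1% of the windows of expressed genes. GCGTG occurred in 24 of 43 (55.8%), against 42.0% of all and 52.5% of expressed genes. The median number of CG dinucleotides was 27 in the members, 25 in expressed genes and 6 in genes not expressed, and both motifs contain CG. These are counts of letters in a fixed window, with no test, and they do not show a binding site.

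The lactate transporters were at moderate levels. SLC16A1 (MCT1), the widely expressed monocarboxylate transporter, had 2776, 2714 and 2854 normalized counts. SLC16A3 (MCT4), the transporter of glycolytic cells that export lactate, had 882, 698 and 787. SLC16A3 varied most between libraries of all expressed members, with an SD of 11.6% of its mean and its highest value 1.26 times its lowest. Per kilobase, SLC16A1 made up 61.7% ± 1.33 of the 4 lactate transporter genes, SLC16A3 25.2% ± 2.19, SLC16A8 7.81% ± 0.44 and SLC16A7 5.23% ± 0.83. SLC16A7 has a transcript of 11936 bases, and per coding length its share was 16.9% and that of SLC16A3 18.3%. The chaperone BSG (basigin), which brings SLC16A1 and SLC16A3 to the cell surface, had 19018, 18051 and 19303 normalized counts. Its ratio to SLC16A1 was 13.0 ± 0.19 per kilobase and 8.77 ± 0.13 per coding length.

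At the entry of pyruvate into mitochondria, PDHA1 and PDHB, the subunits of the E1 component of pyruvate dehydrogenase, had 3949 ± 164 and 3417 ± 171 normalized counts. Their ratio was 0.52 ± 0.04 per kilobase of canonical transcript and 1.07 ± 0.07 per coding length, so the order of the pair depended on the length used. PC, the carboxylase that makes oxaloacetate from pyruvate, had 1828, 1819 and 1730. The mitochondrial pyruvate carrier is formed by MPC1 and MPC2, which were at 421 ± 45.1 and 8548 ± 168 normalized counts, a ratio of MPC2 to MPC1 of 8.30 ± 0.79 per kilobase and 17.5 ± 1.66 per coding length.

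Pyruvate dehydrogenase kinases switch that complex off by phosphorylation. PDK3 had 1410, 1473 and 1481 normalized counts, PDK2 631, 533 and 581, and PDK1, a gene known to respond to hypoxia, 467, 534 and 457. PDK1 was 1 of 3 members highest in replicate 2. The shares of this family depended most on the length used. Per kilobase of canonical transcript PDK3 made up 66.4% ± 1.87, PDK4 17.1% ± 1.03, PDK2 13.7% ± 1.10 and PDK1 2.75% ± 0.28. The canonical transcript of PDK1 has 14072 bases, of which 1308 are coding, and per coding length the share of PDK1 was 13.9% and that of PDK3 44.7%. With the longest transcript of each gene, PDK4 led with 40.1% and PDK3 held 21.3%. Of PDK2, 62.8% of the canonical exons overlap SAMD14 on the opposite strand, and whether reads were counted by strand is not given in the sources used here.

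**Figure D2:**
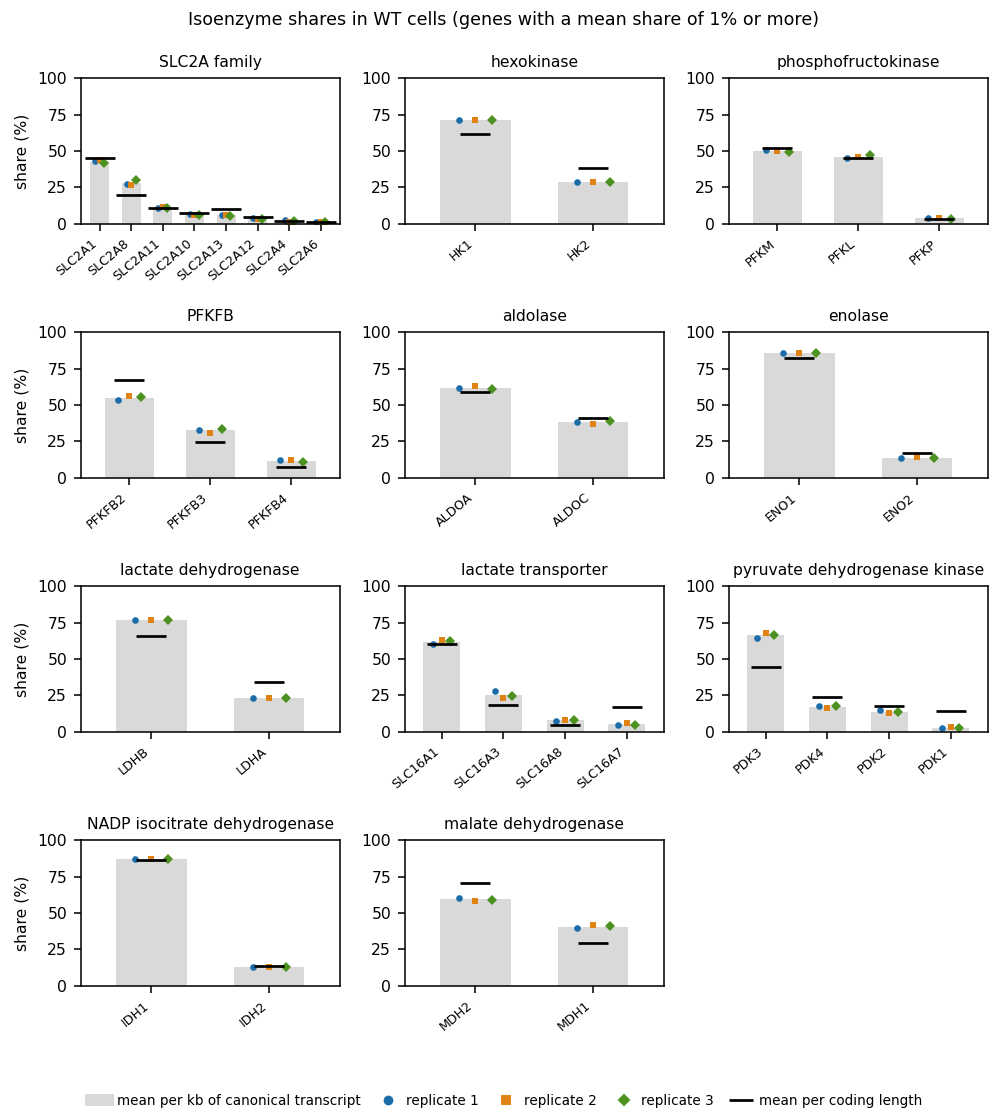
Share of each gene in its isoenzyme family in WT cells, in percent of the family sum of normalized counts per kilobase, for 11 families and genes with a mean share of 1% or more. Bars are means over the 3 libraries, coloured markers the libraries, and black lines the mean per coding length. The markers lie close to the bars in each family. The lines move away from the bars by more than the libraries differ in many families, for instance for HK1, PFKFB2, LDHB, SLC16A7, PDK3 and MDH2.

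Of the citrate-forming and citrate-using steps, CS, which condenses acetyl-CoA and oxaloacetate, had 21948, 21810 and 23030 normalized counts. ACO1, which isomerizes citrate in the cytosol and also serves as an iron regulatory protein, had 1612, 1654 and 1671 normalized counts. SLC25A1, the mitochondrial citrate carrier, had 6166, 6259 and 6290, with an SD of 1.03% of its mean. ACLY, which cleaves exported citrate in the cytosol to acetyl-CoA, had 16211, 16072 and 16000 normalized counts. SLC13A5, a plasma membrane citrate importer, had 2.4, 7.6 and 1.6, and ANKH, which exports citrate and pyrophosphate, had 1459 ± 36.8.

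IDH1, the cytosolic NADP-dependent isocitrate dehydrogenase, had 15108, 14811 and 15075 normalized counts and IDH2, its mitochondrial counterpart, 2546, 2483 and 2563. Per kilobase IDH1 made up 87.2% ± 0.08 of the pair, a ratio of 6.80 ± 0.05, and 86.6% per coding length. MDH2, the mitochondrial malate dehydrogenase, made up 59.3% ± 1.00 and the cytosolic MDH1 40.7% ± 1.00 of their pair, and 70.7% and 29.3% per coding length. Within the cycle, OGDH of the oxoglutarate dehydrogenase complex had 10161 ± 183 normalized counts and fumarase FH 8857 ± 319. The succinate dehydrogenase subunits SDHA and SDHB had 7999 ± 217 and 3768 ± 208 normalized counts, which per kilobase put SDHB (3713 ± 205) above SDHA (2970 ± 80.5). SUCLG1, a subunit of succinyl-CoA ligase, and SDHB overlapped in range per kilobase. IDH3A, the catalytic subunit of the NAD-dependent isocitrate dehydrogenase, had 1917 ± 45.9 normalized counts, and 63.9% of its canonical exons overlap ACSBG1 on the opposite strand. Of the exons of SDHA, 69.4% also belong to a gene on the same strand that has no row.

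The gene that led its family per kilobase was the same in each of the 3 libraries for all 14 families compared. It was also the same in 14 families with no length correction and per coding length, and in 13 with the longest transcript, PDK3 being the exception. Some members also have copies elsewhere in the genome. At 90% identity over 50% of the transcript, 10 of the 43 genes had at least 1 annotated copy. GAPDH had 12, and TPI1 was the 1 member with a copy at 98% identity. PGAM4, a copy of PGAM1 at 97.5% identity, had 12.6, 15.2 and 17.3 normalized counts. How reads that fit several places were treated is not given in the sources used here, so the levels of these 10 genes are uncertain to that extent.

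The 3 libraries were then compared with each other, since WT is a single group. For every gene that averaged 10 reads or more (14646 genes), the 3 read counts were set against TMM library sizes in a chi-square test, and p-values were adjusted by Benjamini-Hochberg. At an adjusted p under 0.05, 25 of the 41 members tested differed between the libraries, against 41.9% of all genes tested. This test takes sampling noise as the only error, so it calls small differences in deeply sequenced genes. Where genes averaged 1000 reads or more, the share called was 58.3% of 36 members and 49.4% of 7572 genes. The differences were small: in 32 of the 41 members the highest library lay less than 10% above the lowest, and the median SD was 3.03% of the mean, against 5.56% for all genes tested. At 1000 reads or more the median SD was 2.92% for the members and 3.57% for all genes.

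When the statistic was divided by 3.49, its value per degree of freedom in genes of 10 to 50 reads, 5 members were called, against 3.47% of all genes. They were GAPDH (adjusted p = 4.6e-19), TPI1 (6.2e-10), ENO1 (0.00036), MDH2 (0.011) and LDHB (0.017). In these 5 genes the highest library was between 1.05 and 1.09 times the lowest. They averaged between 19992 and 167778 reads, far above the genes that gave the divisor, so this test too favours deeply sequenced genes. The share called among all genes of like depth was not computed. With edgeR's trended dispersion added as variance between replicates, 0 members and 0.416% of all genes were called, and at an unadjusted p under 0.05 the counts were 0 members and 802 of all genes. A dispersion estimated on the same 3 libraries absorbs differences between them. Each of the 25 calls thus depended on which error was taken into account.

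The direction of the differences was then described. The deviation is the log2 ratio of a library's normalized count to the mean of the 3 libraries. Its median over the 41 members was 0.00, -0.03 and 0.02 in replicates 1, 2 and 3, against 0.00, -0.01 and 0.00 over all genes tested. Replicate 3 was the highest library for 22 members (53.7%, against 35.5% of all genes) and replicate 2 the lowest for 26 (63.4%, against 36.4%). In lower glycolysis 7 of 8 members were lowest in replicate 2, and so were all 4 lactate genes, 8 of the 13 genes of the citric acid cycle and citrate export, 3 of the 5 phosphofructokinase genes and 3 of the 6 genes of pyruvate entry. In glucose transport and hexose phosphorylation, 0 of 2 and 1 of 3 members were lowest in replicate 2. In replicate 3 the counts were 2 of 2 and 2 of 3. Of these genes the unscaled test called only GPI, which had 13840 and 13817 normalized counts in replicates 2 and 3. The counts therefore do not show a direction for these groups. The deviations of GAPDH, for instance, were -0.01, -0.04 and 0.05, those of LDHB 0.01, -0.04 and 0.03, and those of MDH2 0.00, -0.06 and 0.06. In all, 16 members were highest in replicate 1, and 8 were lowest in replicate 3, namely SLC2A1, SLC2A12, HK2, GPI, PFKP, PDK1, PC and IDH3A. SLC2A12 and PFKP had 0.14 and -0.15 and 0.14 and -0.13 in replicates 1 and 3, and PDK1 had -0.06, 0.14 and -0.09 in replicates 1, 2 and 3.

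**Figure D3:**
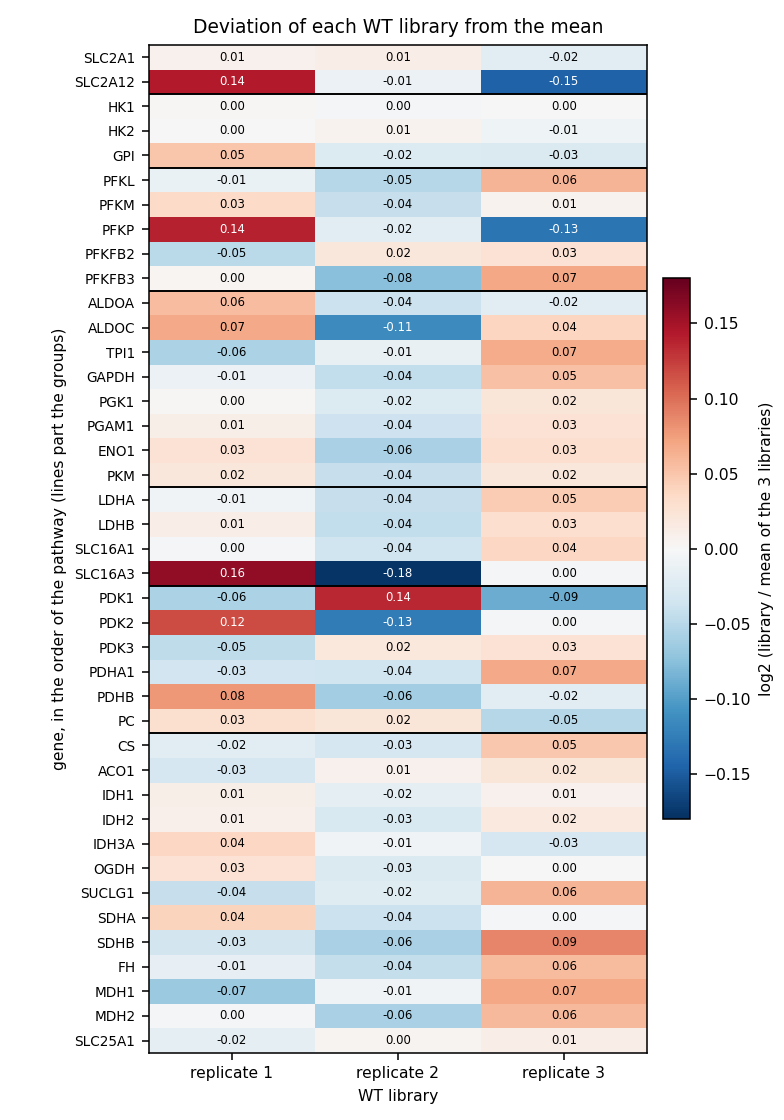
Deviation of each WT library from the mean of the 3 libraries on the log2 scale, for the 41 genes tested, in pathway order. Red is above and blue below the mean. The column of replicate 2 is mostly blue, with 26 genes lowest there, and that of replicate 3 mostly red, with 22 genes highest there.

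Transcript length moved with the deviations over all genes. Over 14567 genes, Spearman's rho across genes between canonical length and deviation was -0.07, 0.25 and -0.18 in replicates 1, 2 and 3, as a description, since genes of a library share its RNA and its preparation. The members had a median length of 2658 bases against 3229 for all genes tested. Of the 14 members under 2000 bases, 11 were highest in replicate 3, and their median deviations were -0.01, -0.04 and 0.03, against 0.01, -0.03 and 0.02 for 3784 genes of that length. The 16 members of 2000 to 4000 bases had medians of 0.01, -0.04 and 0.01, against 0.00, -0.02 and 0.01 for 5241 genes. The 11 members of 4000 bases or more had medians of 0.00, -0.01 and -0.01, against -0.01, 0.02 and -0.02 for 5542 genes, so in replicate 2 their median lay on the other side of 0 from that of all genes. PDK1, the longest, was the member highest above its mean in replicate 2. With the length trend of all genes taken out, the medians of the 41 members were 0.01, -0.01 and 0.01, closer to 0 than before in replicates 2 and 3 and farther from it in replicate 1. The rest was not tested.

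The other genes of the same pathways were counted in the same way, and the counts are to be read against 47.7% of all genes expressed and 41.9% of all tested genes called. Of 12 other glucose transporters 6 were expressed and 3 of 9 tested differed between libraries by the unscaled test. For other glycolytic isoenzymes the counts were 5 of 13 expressed and 2 of 8 called, for other genes of lactate and pyruvate 13 of 17 and 8 of 14, and for other genes of the citric acid cycle 17 of 18 and 8 of 17. In gluconeogenesis and the pentose phosphate pathway 10 of 14 were expressed and 6 of 10 called. FBP1 and PCK1, enzymes of gluconeogenesis, were listed at 0.8 normalized counts or less, while the mitochondrial PCK2 was at 3561 ± 200 and the transketolase TKT at 15380 ± 703. Of 23 hypoxia response genes outside glycolysis 21 were expressed and 9 of 22 tested were called. Among them VHL was at 3958 ± 105 normalized counts, the angiogenic factor VEGFA at 3343 ± 186 and HIF1A, the oxygen-regulated subunit of HIF, at 3129 ± 143. The genes not expressed were the carbonic anhydrase CA9, at 7.1, 0 and 3.9, and ANKRD37, at 15.8, 6.8 and 3.9.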

How the data were processed

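RNA-seq of 3 libraries of WT 22Rv1 cells was used. Per the labels and the study's methods, paired-end reads were mapped to hg19 (GRCh37) with HISAT2, counted per gene with HTSeq and normalized with DESeq2. The deposited signal is thus a read count divided by 1 size factor per library, rounded to 1 decimal by the authors. The release of the annotation, the strand setting and the treatment of reads that map to several places are not given in the sources used here. Whole reads were recovered from the steps of the values: 100% of the values above 0 came out whole within that rounding in each library. Adjacent rows identical in all 3 files were counted once, which removed 1976 of 29000 rows, among them second rows of GPI, PKLR, LDHA and SLC16A1. The totals were 38252744, 35675670 and 38629080 reads.

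Levels were kept in the deposited unit. Library sizes were scaled by TMM (edgeR 4.0.16, R 4.3.3). The chi-square test used scipy 1.17.1 and statsmodels 0.14.6. It was tried on simulated counts with sampling noise alone, which cannot show how it behaves when libraries vary beyond that noise. DESeq2 1.42.0 gave alternative size factors. Genes, canonical transcripts and positions came from the GENCODE annotation lifted to GRCh37, exon overlaps from bedtools 2.31.1 and copies from blastn 2.17.0. SLC2A3 and PKLR were not tested, with fewer than 10 reads on average. The rule for naming genes was to account for all 43 by group. The genes and lists were chosen with earlier results of these data known. Alternatives tried were other scalings, other transcript lengths, other variances, other CPM minimums, rows not merged and each replicate left out. Some genes of the comparison lists are not reported here and entered no list count or family share.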

Additional observations from a re-analysis of the deposited data

How the results depend on the processing

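No paired analysis was possible because WT is a single group. The number of members differing between libraries was 25 with sampling noise alone, 5 with the statistic scaled by low-count genes, 0 with trended dispersion, and between 15 and 19 when each replicate was left out in turn. Over all genes tested, the leave-one-out counts were 3950, 3323 and 3447 without replicates 1, 2 and 3. Leaving out a library leaves fewer reads to compare, and the scaled and trended tests take a larger variance by construction. With repeated rows not merged, the 43 genes took 1.45%, 1.42% and 1.48% of the reads of replicates 1, 2 and 3, since the repeated reads raise the totals. Levels changed by at most 1.55% under other scalings, which hold the overall scale fixed. Of 28 isoenzyme shares, 3 stayed within 1 SD per coding length, 7 with the longest transcript and 7 with no length, so the sizes of shares depend on the length chosen, more than on the libraries. The coding length and the removal of the length trend were chosen after seeing the data.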
